A study of Oryza sativa with 12 samples.

Results

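Thioredoxins, nucleoredoxins and glutaredoxins are small proteins that pass electrons to the cysteines of other proteins. Their transcripts were followed here in arsenate-treated and untreated roots of 2 varieties of rice, Bala and Azucena. Members were the genes measured by a probe set of 1 gene whose symbol or synonym, once a leading Os was dropped, began with TRX, NRX or GRX, and a gene with several probe sets was read on the one with the highest mean signal. Of 17905 genes with such a probe set, 36 fitted, and 10 further genes with a fitting name had none (GRXC2, GRXC4, GRXC5, GRXC11, GRXC13, GRXC14, OsTrxm3, OsTrxx, OsTrxo1 and OsTrxh2-1). Among the 36, OsTrx1, also annotated as SDG723, shares the letters but is a trithorax gene of a SET domain family, and it is kept apart from the counts. That left 35 genes: 14 thioredoxins, 3 nucleoredoxins and 18 glutaredoxins. The mean signal of 32 of them was above the filter value of 9.4 and these were tested; 13 were thioredoxins, 3 nucleoredoxins and 16 glutaredoxins.

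Both varieties had a control and an arsenate group, which makes 4 groups of 3 arrays each (Affymetrix Rice Genome design). Seedlings of both varieties spent 7 days in hydroponic solution under 12 hours of light. Control pots held 0 ppm and treated pots 1 ppm (13.3 uM) arsenate. For each array, 100 mg of root from 4 plants of 1 pot was pooled, and 5 ug of total RNA was labelled with biotin. Experiments 1, 2 and 3 were grown at different times, and in each of them the 4 groups were harvested together. The p-values below rest on how far the differences between groups varied from experiment to experiment. Shifts shared by a whole experiment were taken out, and this spread was pooled over all 4 groups and moderated with that of other probe sets.

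In plants, thioredoxins are reduced by thioredoxin reductases, with NADPH in the cytosol and mitochondria and mainly with ferredoxin in plastids. Thioredoxins in turn reduce disulfide bonds in enzymes, peroxiredoxins and methionine sulfoxide reductases. Glutaredoxins draw their electrons from glutathione, which glutathione reductase keeps reduced. Nucleoredoxins carry several thioredoxin-like domains in 1 protein. Arsenate entering a root is reduced to arsenite, which binds thiols, and glutathione is the precursor of the phytochelatins that bind arsenite.

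Values are the deposited MAS5 signals, whose median on an array lay between 7.3 and 10.4. All 8 root markers (transporters known from the root) were above the filter value on all 12 arrays, and 3 of 10 seed markers passed the filter. Under arsenate 6 of the 8 root markers fell in Azucena and 4 in Bala, with median changes of -2.10 and -1.76 on the log2 scale, where 10.3% and 5.71% of all tested genes fell. Green tissue markers were also present in these root samples. The mean log2 level of 13 such genes was 4.90, 5.12 and 6.29 in experiments 1, 2 and 3 of the Azucena controls and 4.20, 4.44 and 3.87 with arsenate. In Bala it was 5.88, 7.05 and 6.69 without and 5.17, 4.31 and 6.73 with arsenate. RNA quality was read from GAPDH, whose control probe sets had 3' over 5' ratios from 7.58 to 8.60 in Azucena controls and from 8.86 to 23.8 in Azucena with arsenate. They ran from 1.43 to 2.17 in Bala controls and from 3.53 to 3.78 in Bala with arsenate. On this ratio the varieties did not overlap in either condition, nor the conditions in either variety. For cyclophilin the same ratio ran from 1.88 to 3.23, and the ranges overlapped between the varieties in each condition and between the conditions in each variety. The part of these ratios and of the root markers in the changes given below was not tested.

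Changes are given as log2 change ± SE on the scale log2(signal + 2.1), from a limma fit over all 28461 tested probe sets with the experiment as a block, 3 arrays a group. A change passed when its p, adjusted over all tested probe sets by the Benjamini-Hochberg method, was under 0.05. Counts of an unadjusted p under 0.05 are given below without the share of all tested genes at that level, which was not counted. Whether such a count is above that share cannot be read from them. Of the 32 tested members 12 passed in at least 1 of 5 comparisons and 20 in none, where 36.0% of all tested genes passed in at least 1. An arsenate comparison called 7 members (4 glutaredoxins, 2 nucleoredoxins and 1 thioredoxin), where 26.5% of all tested genes were called in either variety. A comparison of the varieties called 8 (4 glutaredoxins and 4 thioredoxins), where 17.0% of all tested genes were called in either condition.

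**Figure D1:**
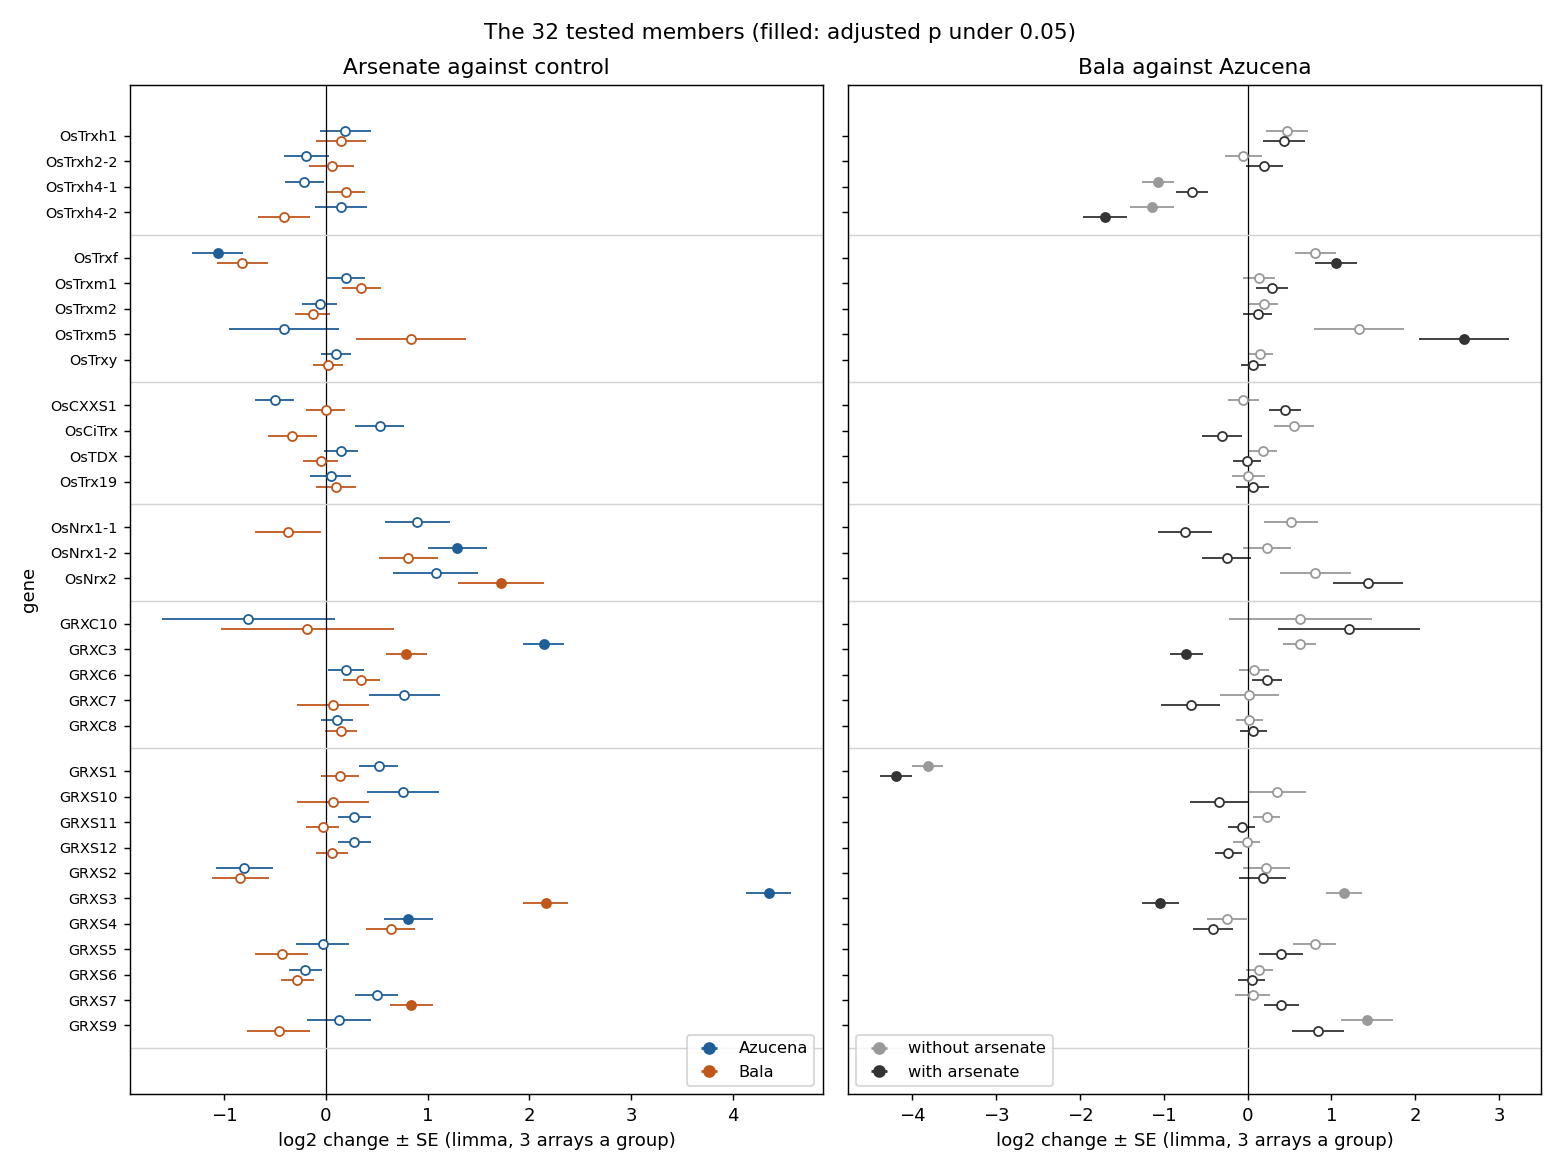
Log2 change ± SE of the 32 tested members, grouped by class from top to bottom (h-type, plastid-type and other thioredoxins, nucleoredoxins, glutaredoxins named GRXC and GRXS), for arsenate against control in each variety (left) and for Bala against Azucena without and with arsenate (right). Filled points passed an adjusted p of 0.05, among them GRXS3 at 4.35 under arsenate in Azucena and GRXS1 at -3.82 and -4.20 between the varieties.

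In Azucena, arsenate raised 3 glutaredoxins (GRXS3, GRXC3 and GRXS4) and 1 nucleoredoxin (OsNrx1-2), and lowered 1 plastid-type thioredoxin (OsTrxf). The 4 that rose are 12.5% of the tested members, where 12.4% of all 15638 tested genes rose, so that share was near the background. The 1 that fell is 3.12%, where 10.3% of all tested genes fell. The median change of the members was 0.17, and that of all tested genes 0.14. In Bala, arsenate raised 3 glutaredoxins (GRXS3, GRXC3 and GRXS7) and 1 nucleoredoxin (OsNrx2), again 12.5% of the tested members, where 6.98% of all tested genes rose. None of the 32 passed as lower in Bala by limma, where 5.71% of all tested genes did; 8 members had an unadjusted p under 0.05 there, in either direction. The members' median was 0.06 against 0.08 for all genes. In such whole-root RNA, fewer cells of a type and less RNA per cell cannot be told apart.

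GRXS3, a glutaredoxin gene on chromosome 1, had the greatest arsenate change of all tested members in both varieties. Its signal in experiments 1, 2 and 3 was 11.1, 9.1 and 6.0 in Azucena controls and 227, 235 and 186 with arsenate. In Bala it was 23.3, 22.0 and 19.3 without arsenate and 88.7, 154 and 80.0 with it. Every treated array was far above every control array of its variety, and none of the 4 groups overlapped another. The log2 change was 4.35 ± 0.22 in Azucena (limma adjusted p = 4.78e-05) and 2.16 ± 0.22 in Bala (limma adjusted p = 0.000851). The mean of the Azucena controls, 8.73, lay below the filter value, so the size of the Azucena change depends on the added constant. With the constant at the 5th and 50th percentile of all signals it was 4.60 and 3.64. Both calls were kept in all 25 settings that could be run for this gene, which has 1 probe set.

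GRXC3, on chromosome 2, is also annotated as ROXY2; in Arabidopsis, ROXY genes encode plant-specific CC-type glutaredoxins that act in petal and anther development. It read 41.5, 31.1 and 29.9 in Azucena controls and 236, 137 and 118 with arsenate. Bala gave 62.2, 51.2 and 46.9 in controls and 96.9, 86.9 and 96.5 under arsenate. In each variety the treated arrays were all above the controls, and in Azucena the first experiment stood highest in both conditions. The change was 2.14 ± 0.20 in Azucena (limma adjusted p = 0.000407), kept in all 25 settings run for it, and 0.79 ± 0.20 in Bala (limma adjusted p = 0.0362). The Bala call was kept only when Azucena arsenate 1 or 3 was the array left out: without any of the other 10 arrays the adjusted p was between 0.0570 and 0.114, and without the experiment as a block it was 0.0738. This probe set can match several transcripts.

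GRXS4 and GRXS7 passed the test in 1 variety each, and the difference between the varieties' responses did not pass for either, at -0.16 ± 0.35 and 0.34 ± 0.29 (limma adjusted p = 0.921 and 0.755). GRXS4, on chromosome 1, read 226.5, 283 and 249 in Azucena controls and 482, 455 and 394 with arsenate, and 237, 268 and 149 against 281.5, 321 and 404 in Bala. Both varieties had all 3 treated arrays above all controls, with the Bala groups closer together. Its change was 0.81 ± 0.24 in Azucena (limma adjusted p = 0.0465) and 0.64 ± 0.24 in Bala (limma adjusted p = 0.125). A further probe set of GRXS4 gave 0.95 ± 0.21 (limma adjusted p = 0.0138) and 0.52 ± 0.21 (limma adjusted p = 0.138) in the same order. On the first probe set the Azucena call was kept only without Bala control 3 or Bala arsenate 3, and without any other array the adjusted p was between 0.0530 and 0.159. GRXS7, on chromosome 3, read 395, 368 and 261 in Azucena controls and 462, 489 and 480.0 with arsenate, and 477, 368 and 246 against 709, 613 and 576 in Bala. Here too no treated array fell among the controls of its variety, and experiment 3 was the lowest control in both. The change was 0.50 ± 0.21 in Azucena (limma adjusted p = 0.115) and 0.84 ± 0.21 in Bala (limma adjusted p = 0.0327). The Bala call was lost, with an adjusted p between 0.0544 and 0.108, without Azucena control 1 or 2, Azucena arsenate 2, Bala control 2 or 3 or any 1 of the Bala arsenate arrays, and the adjusted p was 0.0551 without the block.

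**Figure D2:**
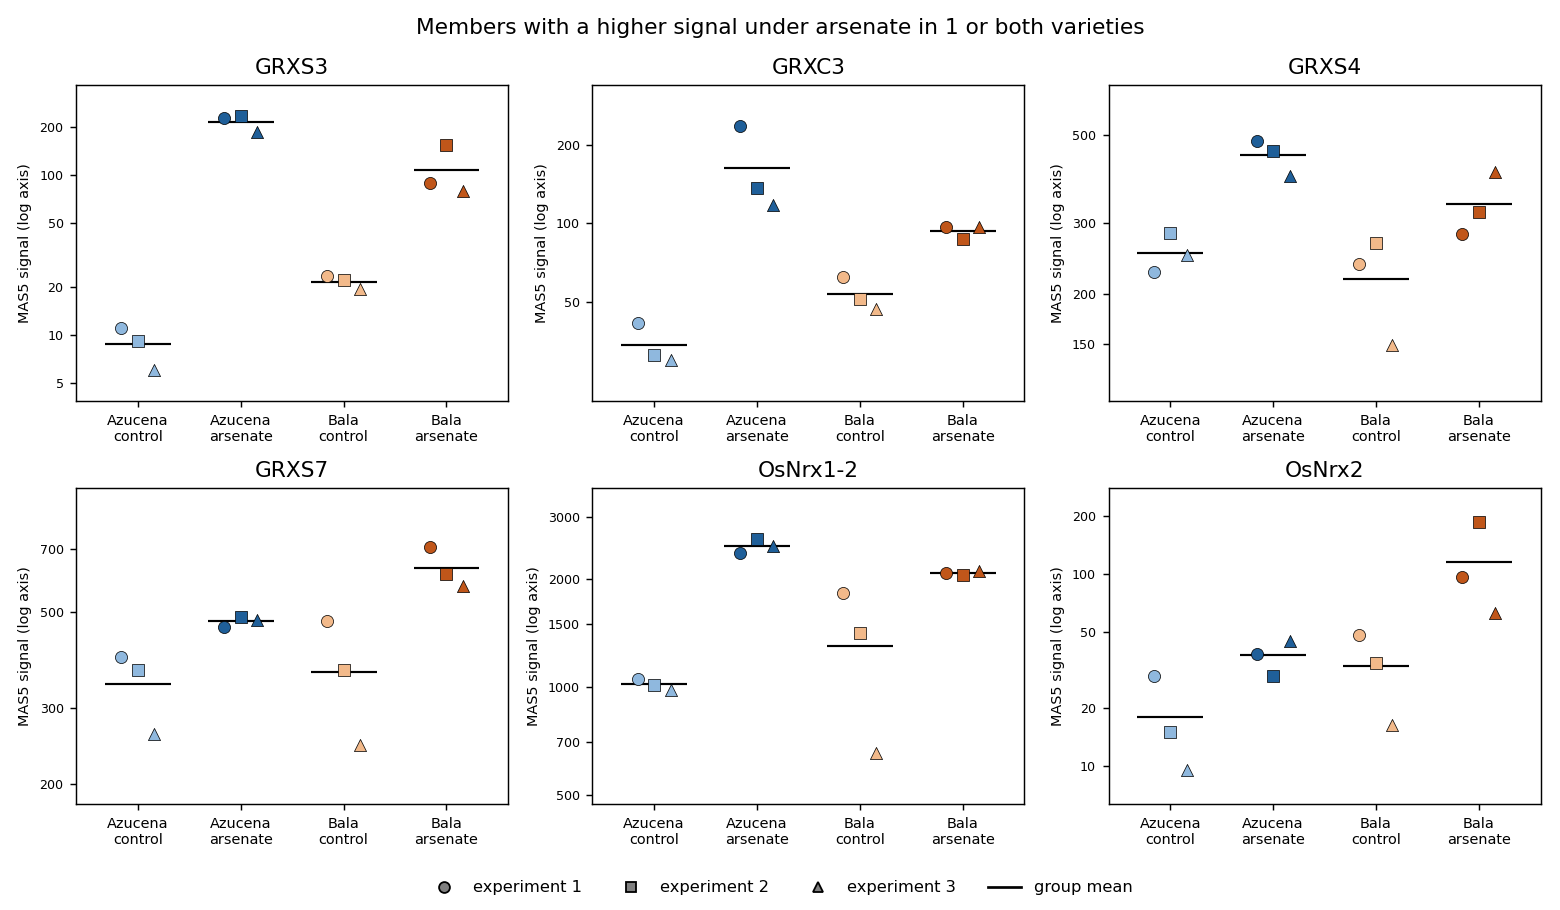
MAS5 signal (log axis) of the 6 members that rose under arsenate in 1 or both varieties, with 1 symbol per array, the shape giving the experiment and the line the group mean. GRXS3 went from 8.73 to 215.7 on average in Azucena and from 21.5 to 107.7 in Bala, whereas the Azucena and Bala controls of OsNrx2 reach up to the Azucena arsenate arrays.

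The other glutaredoxins did not pass in either arsenate comparison. Over the 5 tested GRXC genes the Azucena changes ran from -0.76 to 2.14 and the Bala changes from -0.18 to 0.79, and over the 11 GRXS genes from -0.80 to 4.35 and from -0.84 to 2.16. The letter marks a cysteine or a serine at a set position of the active site. Both low ends of the GRXC changes were GRXC10, whose Azucena group means, 5.77 and 2.17, lay under the filter value. GRXC10 passed the filter only through Bala control 3, at 90.8. GRXS2, on chromosome 1, is named here after its values were seen, as the lowest of the glutaredoxins in Bala. Its signal was 1289, 1177 and 619 in Azucena controls against 448, 682 and 585 with arsenate, and 1336.5, 1085 and 1026 against 676, 583 and 661 in Bala. It was lower with arsenate in all 3 experiments of each variety, while the Azucena groups overlapped and the Bala groups did not. The change was -0.80 ± 0.28 in Azucena (limma adjusted p = 0.0738) and -0.84 ± 0.28 in Bala (limma adjusted p = 0.0870), neither past the threshold.

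Each of the 3 nucleoredoxins was higher with arsenate in all experiments of Azucena, and 1 passed there. OsNrx1-2 lies on chromosome 3 with 3 genes between it and OsNrx1-1; an Arabidopsis nucleoredoxin of this kind is known to protect antioxidant enzymes such as catalase. It read 1055, 1015 and 980.2 in Azucena controls and 2379, 2590.4 and 2481 with arsenate, and 1829, 1414 and 654 against 2082, 2063 and 2115 in Bala. The Azucena groups were tight and well apart, while the Bala controls spread widely and still lay below all treated arrays. The change was 1.29 ± 0.29 in Azucena (limma adjusted p = 0.0174) and 0.81 ± 0.29 in Bala (limma adjusted p = 0.113). Without Azucena control 1, Azucena control 2 or Azucena arsenate 2 the Azucena adjusted p was 0.0709, 0.0717 and 0.0615.

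OsNrx2, on chromosome 1, passed in Bala. Its signal was 29.5, 15.0 and 9.5 in Azucena controls and 38.3, 29.4 and 44.8 with arsenate, and 48.2, 34.4 and 16.2 against 96.5, 185 and 62.4 in Bala. The treated arrays lay above the controls in Bala, and overlapped them in Azucena by the first control. The change was 1.72 ± 0.42 in Bala (limma adjusted p = 0.0320) and 1.08 ± 0.42 in Azucena (limma adjusted p = 0.0968). Leaving out any 1 of the 6 Bala arrays lost the Bala call, with an adjusted p between 0.0516 and 0.107. OsNrx1-1, named after its values were seen, read 798, 780.0 and 473 in Azucena controls against 1139, 1607 and 1058 with arsenate. In Bala it read 1188, 1455 and 505 against 740.0, 653 and 832, with experiment 3 low in the controls of both varieties and the Bala groups overlapping. Its changes, 0.90 ± 0.32 in Azucena (limma adjusted p = 0.0747) and -0.37 ± 0.32 in Bala, did not pass. The probe sets of OsNrx1-2 and OsNrx2 can match several transcripts.

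Among the 13 tested thioredoxins the arsenate comparisons called OsTrxf alone, as lower in Azucena. OsTrxf, on chromosome 1, encodes an f-type thioredoxin, a plastid form known for the light-dependent activation of enzymes of carbon fixation. It read 48.2, 55.5 and 52.4 in Azucena controls and 25.8, 25.4 and 20.4 with arsenate. Bala gave 65.3, 94.7 and 128 in controls and 58.0, 49.4 and 47.7 with arsenate. No control array lay among the treated arrays of its variety, and the Azucena controls and the treated Bala arrays shared a range. The change was -1.06 ± 0.25 in Azucena (limma adjusted p = 0.0179) and -0.82 ± 0.25 in Bala (limma adjusted p = 0.0640). The Azucena adjusted p was between 0.0512 and 0.0734 without Azucena control 1, 2 or 3 or without Azucena arsenate 2 or 3, while the Bala adjusted p was 0.0462 without the block and 0.0312 without Bala control 1.

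The mean log2 level of the green tissue markers, given above, was lower on every arsenate array than on every control array in Azucena, as was OsTrxf, while Bala arsenate 3 had a high marker level (6.73) and an OsTrxf signal of 47.7. Of 11 tested markers 2 fell in Azucena under arsenate (18.2%, where 10.3% of all tested genes fell) and 1 in Bala (9.09%, beside 5.71%). Their changes ran from -2.77 to 0.15 in Azucena and from -2.89 to 0.71 in Bala, with medians of -1.78 and -1.01. The markers' summed signal ran from 2553 to 3924 in Azucena controls, 1523 to 2499 with arsenate, 3506 to 5442 in Bala controls and 2811 to 5407 with arsenate. On some arrays 1 gene, OsPPDKB, made up most of this sum. It gave 1160 of the 1523 on Azucena arsenate 1 and 2265 of the 2499 on Azucena arsenate 3, but 1332 of the 5407 on Bala arsenate 3. From 5 to 12 of the 13 genes were above the filter value on an array. CAB2R, a chlorophyll a/b binding protein, read 69.5, 94.4 and 1647 in Azucena controls and 57.6, 60.4 and 35.8 with arsenate, and in Bala 729.9, 1313 and 2650.4 against 164, 70 and 2252. The markers' part in the OsTrxf change was not tested. The other plastid-type thioredoxins did not pass under arsenate: OsTrxm1, OsTrxm2, OsTrxm5 and OsTrxy had changes from -0.41 to 0.20 in Azucena and from -0.13 to 0.84 in Bala. In plastids, m-type forms share the enzyme targets of the f-type, and y-type forms serve antioxidant enzymes.

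**Figure D3:**
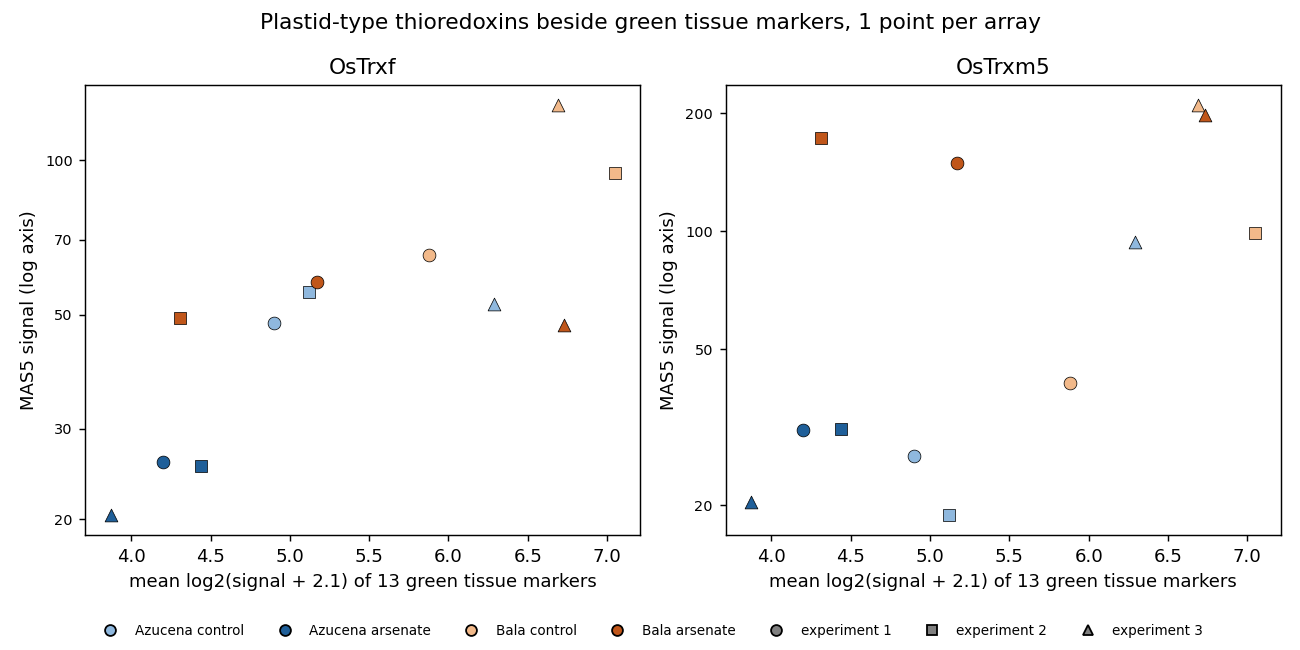
MAS5 signal (log axis) of the plastid-type thioredoxins OsTrxf and OsTrxm5 against the mean log2(signal + 2.1) of 13 green tissue markers, 1 point per array. The 3 Azucena arsenate arrays hold the lowest OsTrxf signals, 20.4 to 25.8, and 3 of the 4 lowest marker levels, whereas OsTrxm5 is at 149.6 and 173 on Bala arsenate arrays whose marker levels are 5.17 and 4.31.

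None of the h-type and other thioredoxins passed under arsenate by limma; 1 of these 8, OsCXXS1 in Azucena, had an unadjusted p under 0.05. OsTrxh1 on chromosome 7, a cytosolic h-type thioredoxin known as a phloem sap protein of rice, read 3341, 3153 and 3029 in Azucena controls and 2814, 3668 and 4624 with arsenate, and 5139.8, 4737 and 3511 against 5032, 5934 and 3889 in Bala. Its groups overlapped in both varieties, and the changes were 0.19 and 0.15. A further, dimmer probe set of OsTrxh1 rose in Azucena by 2.51 (limma adjusted p = 0.00769), with all Azucena controls below the filter value. OsCXXS1 on chromosome 4 belongs to a group with a single active-site cysteine. It read 2142, 1895 and 2282 in Azucena controls and 1422, 1505.5 and 1519 with arsenate. All treated Azucena arrays were below the controls, and the change was -0.50 ± 0.19 (limma adjusted p = 0.0879, or 0.0278 with limma's trend and robust options). In Bala its change was 0.00, with signals from 1661 to 2524 in controls and 1866 to 2194.5 with arsenate. OsTDX, whose Arabidopsis counterpart joins a thioredoxin to tetratricopeptide repeats, and OsTrx19 changed by no more than 0.15 in either variety.

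The difference between the arsenate responses (Bala minus Azucena) was tested in the same fit. None of the 32 members passed by limma, where 0.0703% of all tested genes (11) did, and 4 members had an unadjusted p under 0.05: GRXS3, GRXC3, OsNrx1-1 and OsCiTrx. GRXS3 came closest, with a difference of -2.19 ± 0.31 (limma adjusted p = 0.0512). It passed with the added constant at the 50th percentile (-1.77, adjusted p 0.0309), with the filter at the 70th percentile (0.0288), with each array centred on its median (-2.44, adjusted p 0.0350), with trend and robust options (0.0414) and without Bala arsenate 2 (-2.44, adjusted p 0.0444). In the other 19 settings it did not pass, among them no filter on low values (adjusted p 0.151) and leaving out experiment 1 (0.319) or experiment 2 (0.498). For GRXC3 the difference was -1.35 ± 0.28 (limma adjusted p = 0.123) and for OsNrx1-1 -1.28 ± 0.45 (limma adjusted p = 0.359). OsCiTrx on chromosome 8, named after its values were seen, is called after a tomato thioredoxin that binds the Cf-9 resistance protein. It read 35.6, 40.5 and 43.3 in Azucena controls and 58.4, 65.9 and 51.0 with arsenate, against 43.0, 65.1 and 74.1 and then 39.0, 38.2 and 67.8 in Bala. Thus it was higher with arsenate in each Azucena experiment and lower in each Bala experiment, with overlapping groups in Bala. The difference was -0.86 ± 0.34 (limma adjusted p = 0.422).

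Without arsenate, 2 members were higher in Bala than in Azucena (GRXS3 and GRXS9), 6.25% where 5.13% of all tested genes were higher. The 3 lower members (GRXS1, OsTrxh4-1 and OsTrxh4-2) were 9.38%, where 7.04% of all tested genes were lower. With arsenate, 2 were higher in Bala (OsTrxf and OsTrxm5), 6.25% beside 4.82% of all tested genes, and 4 were lower (GRXS1, GRXS3, GRXC3 and OsTrxh4-2), 12.5% beside 6.65%. The median differences of the members were 0.18 and 0.06, and those of all tested genes 0.02 and -0.02. These comparisons share arrays with the arsenate comparisons. A probe set reads the transcript of both varieties with the same probes, so a difference in sequence under the probes and a difference in transcript level cannot be told apart in them.

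GRXS1, on chromosome 1, differed most between the varieties. Its signal was 392, 349.5 and 412 in Azucena controls and 570.5, 566 and 518 in Azucena with arsenate. Bala gave 26.9, 23.6 and 25.2 in controls and 22.0, 30.5 and 32.9 with arsenate. Every Azucena array was above every Bala array by more than 10-fold, and all 6 Bala arrays were still above the filter value. Bala minus Azucena was -3.82 ± 0.19 without arsenate (limma adjusted p = 4.03e-06) and -4.20 ± 0.19 with it (limma adjusted p = 3.28e-06), both kept in all 25 settings run for them. In Azucena the treated arrays lay above the controls, with a change of 0.52 ± 0.19 that did not pass (limma adjusted p = 0.0800).

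GRXS3 and GRXC3 read higher in Bala without arsenate and higher in Azucena with it. For GRXS3, Bala minus Azucena was 1.15 ± 0.22 without arsenate (limma adjusted p = 0.00777; 0.0675 without Azucena control 3 and Bala arsenate 3 together). With arsenate it was -1.04 ± 0.22 (limma adjusted p = 0.0133, or 0.0757 without Bala arsenate 1). Both calls of GRXS3 were lost in all 3 fits that left out an experiment. The limma adjusted p was then 0.0521 to 0.0900 without arsenate and 0.0568 to 0.155 with it. For GRXC3, Bala minus Azucena was 0.62 ± 0.20 without arsenate (limma adjusted p = 0.0771) and -0.73 ± 0.20 with it (limma adjusted p = 0.0431). The second of these was kept only without Azucena arsenate 3 or Bala arsenate 3. Without any other array its adjusted p was between 0.0509 and 0.204, and without the block 0.0951. In both genes this order of the varieties held in all 3 experiments, and the varieties did not overlap in either condition. GRXS9 on chromosome 5 read 224, 218 and 236 in Azucena controls and 834, 569 and 482 in Bala controls, and 159, 345 and 272 against 456, 552 and 347 with arsenate. Bala was the higher in each experiment, with no overlap in either condition. The difference was 1.43 ± 0.31 without arsenate (limma adjusted p = 0.0155) and 0.84 ± 0.31 with it (limma adjusted p = 0.123). Without Azucena control 1, Azucena control 2 or Bala control 1 the first had an adjusted p of 0.0536, 0.0802 and 0.0562.

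**Figure D4:**
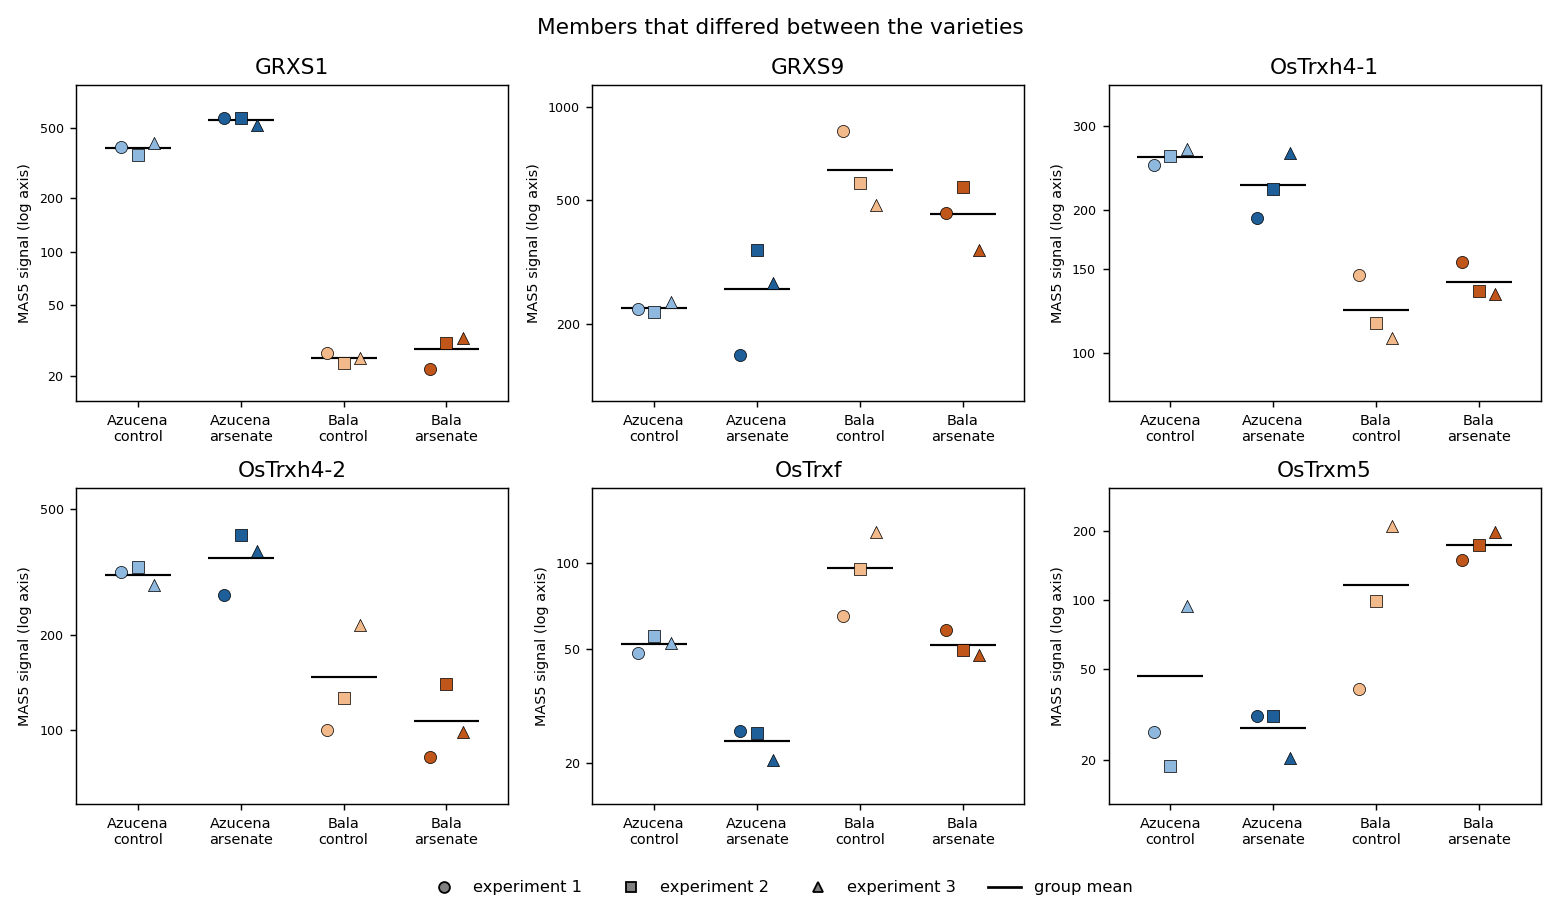
MAS5 signal (log axis) of 6 members that differed between the varieties in controls, under arsenate or in both, with 1 symbol per array, the shape giving the experiment and the line the group mean. The 6 Azucena arrays of GRXS1 lie between 349.5 and 570.5 and the 6 Bala arrays between 22.0 and 32.9, while for OsTrxm5 the Azucena control of experiment 3, at 94.2, lies among the Bala controls.

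Of the h-type thioredoxins, a pair was lower in Bala. OsTrxh4-1 on chromosome 1 read 248, 259 and 269 in Azucena controls and 146, 116 and 108 in Bala controls, and 192, 221 and 264 against 155, 135 and 133 with arsenate. The varieties did not overlap in either condition. The difference was -1.07 ± 0.19 in controls (limma adjusted p = 0.00599) and -0.66 ± 0.19 with arsenate (limma adjusted p = 0.0572, or 0.0372 without the block). OsTrxh4-2 on chromosome 5 read 315, 326.5 and 287 in Azucena controls and 100.0, 126 and 214.5 in Bala controls. With arsenate it read 267, 412 and 366.5 in Azucena and 82.1, 139.8 and 98.8 in Bala, again without overlap. Its differences were -1.14 ± 0.26 in controls (limma adjusted p = 0.0203) and -1.70 ± 0.26 with arsenate (limma adjusted p = 0.00251). The first was lost without Azucena control 1 or 2 or Bala control 1 or 2, with an adjusted p between 0.0653 and 0.0938. A further probe set of OsTrxh4-2 had the opposite sign, with 0.31 in controls (limma adjusted p = 0.701) and 0.39 with arsenate (limma adjusted p = 0.605). Both of these probe sets can match several transcripts, and 1 more had a mean signal of 6.93, below the filter value, and was not tested, so a lower OsTrxh4-2 level in Bala rests on 1 of them.

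The plastid-type thioredoxins OsTrxf and OsTrxm5 were higher in Bala with arsenate. For OsTrxf the difference was 1.05 ± 0.25 with arsenate (limma adjusted p = 0.0218) and 0.81 ± 0.25 in controls (limma adjusted p = 0.0631, or 0.0428 without the block). The first was lost without Azucena arsenate 2 or 3 or Bala arsenate 1 or 2, with an adjusted p between 0.0594 and 0.115. OsTrxm5, an m-type gene on chromosome 12, read 26.7, 18.9 and 94.2 in Azucena controls and 40.9, 98.8 and 209.7 in Bala controls, and 31.2, 31.3 and 20.4 against 149.6, 173 and 198 with arsenate. The control groups overlapped, with experiment 3 the highest in both varieties, and the treated groups were far apart. The difference with arsenate was 2.58 ± 0.54 (limma adjusted p = 0.0130), or 2.08 ± 0.42 on a further probe set (limma adjusted p = 0.0108), and in controls 1.33 ± 0.54 (limma adjusted p = 0.158). Without Bala arsenate 1 or 2 the first adjusted p was 0.0620 and 0.0587. Both probe sets can match several transcripts. None of the 11 tested green tissue markers passed between the varieties by limma, and their median difference, Bala minus Azucena, was 1.54 in controls and 1.22 with arsenate, with an unadjusted p under 0.05 for 2 and 3 of them. Their part in these differences was not tested.

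The 20 tested members called in no comparison had changes from -0.80 to 0.90 under arsenate in Azucena, from -0.84 to 0.35 in Bala, and from -0.05 to 0.80 and -0.75 to 1.21 between the varieties without and with arsenate. With OsTrxh1 and OsCXXS1, GRXC6 and OsTrxh2-2 had the highest mean signals among them. In Azucena, GRXC6 on chromosome 4 read from 2029 to 3039 on control arrays and from 2727 to 3210.1 on treated ones, and in Bala from 1964.5 to 3348 and from 3349 to 3665. Its changes were 0.20 and 0.35. OsTrxh2-2 on chromosome 3, an h-type form, read from 1957 to 2112 and 1594 to 2001 in Azucena and from 1433 to 2581 and 1773 to 2258 in Bala. Its groups overlapped in both varieties, and its changes were -0.19 and 0.06. GRXC10 passed the filter through 1 array alone, Bala control 3 at 90.8, and the other 11 arrays read 10.9 or less. The difference of 1.21 with arsenate was that of GRXC10, with group means of 2.17 and 7.7, both under the filter value.

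GRXC1, GRXC15 and OsTrxh5 had a mean signal under the filter value and were not tested. The highest reading of GRXC1 was 17.3 in Bala control 3 and that of GRXC15 17.2 in Azucena control 3. OsTrxh5 read 11.0 at most. No group of these 3 had a mean above the filter value, so their levels were not detectable against this filter.

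Partner genes of the same electron path were matched by symbol, together with protein disulfide isomerases, which share the thioredoxin fold. Of the 28 tested genes 11 were protein disulfide isomerases. Under arsenate 1 rose and 3 fell in Azucena, and 2 rose and 1 fell in Bala, with median changes of -0.06 and 0.00. These are 3.57% and 10.7% in Azucena, where 12.4% of all tested genes rose and 10.3% fell, and 7.14% and 3.57% in Bala, beside 6.98% and 5.71%. The rise in both varieties was in gcs, the gene for glutamate-cysteine ligase at the start of glutathione synthesis: 1.56 ± 0.17 in Azucena and 1.24 ± 0.17 in Bala (limma adjusted p = 0.000799 and 0.00303). The Bala call was lost in 2 of the 3 fits that left out an experiment, with a limma adjusted p of up to 0.105, and the Azucena call was kept. This probe set of gcs, the brightest of 3, can match several transcripts, and the others were not read. GR, a glutathione reductase on chromosome 2, read 1250, 1400 and 1122 in Azucena controls and 1683, 1912 and 2229 with arsenate, and 1227, 1229 and 947 against 1880.1, 2507 and 1518 in Bala. Treated arrays were above controls in both varieties. The change was 0.77 ± 0.21 in Bala (limma adjusted p = 0.0449) and 0.62 ± 0.21 in Azucena (limma adjusted p = 0.0639), and the Bala call was lost without any 1 of 10 arrays, with an adjusted p of up to 0.154.

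The reductases of thioredoxins did not pass under arsenate in either variety (0 of 4 by limma, and 0 with an unadjusted p under 0.05). Changes in Azucena and Bala were -0.43 and -0.24 for OsNTRA and -0.27 and -0.21 for NTRB. They were 0.30 and 0.34 for OsNtrC, a plastid reductase fused to a thioredoxin domain. OsNtrC was higher in Bala than in Azucena, by 1.09 ± 0.23 in controls and 1.13 ± 0.23 with arsenate (limma adjusted p = 0.0124 and 0.0108), calls lost without experiment 2's array of either group compared. None of 5 peroxiredoxins, which take electrons from thioredoxins to reduce peroxides, passed under arsenate. By limma, 1 of the 5 had an unadjusted p under 0.05 in Azucena, PRXIIE-2 at 1.22 ± 0.42 (adjusted p = 0.0678), and none had in Bala. Of 6 methionine sulfoxide reductases, which repair oxidised methionine, MSRB5 fell in both varieties, by 0.77 ± 0.19 in Azucena and by 0.67 ± 0.19 in Bala on the log2 scale (limma adjusted p = 0.0205 and 0.0491). Its call was lost without any 1 of 5 arrays in Azucena and of 10 arrays in Bala, with an adjusted p of up to 0.0869 and 0.152. Of 11 protein disulfide isomerases, thioredoxin-fold enzymes of the endoplasmic reticulum, 2 fell in Azucena (18.2%, beside 10.3% of all tested genes) and none passed in Bala by limma, where 5.71% of all tested genes fell and none of the 11 had an unadjusted p under 0.05. OsPDIL1-3 fell by 1.39 ± 0.34 and OsPDIL1-2 by 1.10 ± 0.24 on the log2 scale (limma adjusted p = 0.0230 and 0.0149), with an adjusted p of up to 0.0941 and 0.0583 when an Azucena array was left out.

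The trithorax gene OsTrx1 (SDG723) on chromosome 9, of a family known for histone methylation, met the symbol rule without belonging to these families. It read 174, 152 and 212 in Azucena controls and 343, 299 and 286.5 with arsenate, and 101, 156 and 158 against 203, 171 and 282 in Bala. No treated array was below a control of its variety. Its change was 0.79 ± 0.23 in Azucena (limma adjusted p = 0.0439) and 0.65 ± 0.23 in Bala (limma adjusted p = 0.109), and the Azucena call was lost without any 1 of 7 arrays, with an adjusted p of up to 0.165.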

How the data were processed

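RNA was measured on 12 arrays. The authors deposited 1 intensity per probe set, the MAS5 signal per the submitters' processing notes (no version given). The mean of an array's signals after trimming 2% at each end was 100 on all 12 arrays, with no value below 0, and the values were therefore treated as linear and already scaled. Control probe sets (123 of 57381) were left out.

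Values were taken as log2(signal + 2.1), where 2.1 is the 25th percentile. The test took probe sets whose mean exceeded 9.4, the pooled median (28461 probe sets, 15638 genes). Limma 3.58.1 in R 4.3.3 fitted 4 group means plus a block for the experiment (residual degrees of freedom 6, prior 2.85), 5 contrasts and Benjamini-Hochberg adjustment within each. The fit was also run on data simulated from its own model, which cannot check the assumptions of that model. The series text states that arrays of 1 number were harvested together in independent experiments. Deviations from group means had a median r of 0.131 over 18 pairs of the same experiment (11 above 0.1) and -0.0359 over 36 other pairs. Deviations within a group cancel, so positive values for the same experiment make the other pairs negative on average. The second value is therefore not independent of the first.

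Genes were named through the platform's annotation and a RefSeq gene table of assembly ASM3414082v1. Membership rests on symbols, and families were not checked against sequence. The members, the partner and marker lists and the tests were chosen with earlier results of these data known. Members called in any contrast are named with values, as are the 4 uncalled members of highest mean signal, those below the filter, and up to 3 genes per partner class with the smallest adjusted p under arsenate. Alternatives were no replicate block, other pseudocounts (0.4 and 9.4), filters (none, or 49.3), scalings (quantile, median centring), trend and robust options, only the groups compared, further probe sets, and leaving out each array or experiment. After the data were seen, Azucena control 3 and Bala arsenate 3 were left out together as 1 more alternative. The number of arrays limits the precision. Probe-level files were not used here.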

Additional observations from a re-analysis of the deposited data

How the results depend on the processing

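Of the 20 changes of members that passed, 5 were kept in all 25 settings run for them: GRXS3 under arsenate in Azucena and Bala, GRXC3 under arsenate in Azucena, and GRXS1 between the varieties without and with arsenate. The 26th setting, a further probe set of the gene, could not be run for these 3 genes, which have 1 probe set each. Leaving out at least 1 array lost 12 of the 20, and leaving out at least 1 experiment lost 14. Such fits hold fewer arrays.

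The count of members past the test under arsenate in Azucena, 5, was 2 without the filter, 8 with trend and robust options and 2 to 6 when an array or experiment was left out. In Bala it was 4, and became 1 without the filter, 2 with each array centred on its median, 1 with only the groups compared, 1 without Azucena control 3 and Bala arsenate 3, and 1 to 4 when an array or experiment was left out. For the difference in response the count of 0 became 1, GRXS3, with the pseudocount at the 50th percentile, the filter at the 70th, median centring or trend and robust options, and 0 to 1 when an array or experiment was left out. Between the varieties without arsenate, 5 became 3 without Azucena control 3 and Bala arsenate 3, and 1 to 7 in leave-one-out fits. With arsenate, 6 became 3 without the filter, 3 without those 2 arrays, and 2 to 7 in leave-one-out fits. The cause was not tested. Median centring apart, these counts stand without the number of all genes called in the same setting. A gain or loss shared by all genes therefore cannot be told apart in them. With median centring, 707 of all tested genes were called higher and 1168 lower in Bala, beside 1092 and 893 in the main fit. The further probe set of OsTrxh4-2 reversed its variety difference, to 0.31 and 0.39.

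Without the experiment as a block the counts were 5 in Azucena, 3 in Bala, 0 for the difference, 6 between the varieties without and 6 with arsenate. Of all 15638 tested genes the same fit called 1844 higher and 1468 lower in Azucena, and 1011 and 817 in Bala. Between the varieties it called 720 higher and 1054 lower in Bala without arsenate, and 703 and 1029 with it. That fit lost GRXC3 under arsenate in Bala and between varieties with arsenate and GRXS7 in Bala, and called OsTrxf in Bala and between untreated varieties and OsTrxh4-1 between treated varieties. Among all genes the difference in response then had 23 calls in place of 11, and 31 with median centring. Median centring moved the median change of all genes from 0.14 to 0.23 in Azucena, 0.08 to -0.08 in Bala, -0.04 to -0.29 for the difference, 0.02 to 0.16 between the varieties without arsenate and -0.02 to -0.12 with it. The higher share of the calls went from 54.7 to 61.7% in Azucena, 55.0 to 37.7% in Bala, 27.3 to 16.1% for the difference, 42.1 to 54.9% and 42.0 to 32.6% between the varieties. Low signals limit what can be read of GRXC1, GRXC10, GRXC15 and OsTrxh5.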

Other observations

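Several members had a further tested probe set that read differently from the one used above. OsTrxh1, the phloem sap h-type thioredoxin, changed by 0.19 under arsenate in Azucena on its brightest probe set. On a dimmer one it read 7.9, 3.7 and 1.0 in Azucena controls and 26.6, 69.9 and 13.9 with arsenate, and from 1.0 to 27.8 against 9.9 to 37.4 in Bala. The Azucena groups did not overlap there, with a change of 2.51 ± 0.47 (limma adjusted p = 0.00769), and all Azucena controls lay below the filter value.

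GRXS11, a glutaredoxin gene on chromosome 10, did not differ past the threshold between the varieties on the probe set used above. On a further one it read 372, 402.5 and 427 in Azucena controls and 758.5, 594 and 810.0 in Bala controls, and 283, 265 and 325 against 663.5, 699 and 609 with arsenate. Every Bala array was above every Azucena array. The difference was 0.83 ± 0.18 without arsenate (limma adjusted p = 0.0131) and 1.17 ± 0.18 with it (limma adjusted p = 0.00214). Both genes were picked out here after their values were seen.

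Between the varieties, OsPDIL1-3, a protein disulfide isomerase, was lower in Bala by limma, with -3.06 ± 0.34 without arsenate (adjusted p = 0.000378) and -1.82 ± 0.34 with it (adjusted p = 0.00766). The second call was lost in 1 of the 3 fits that left out an experiment (limma adjusted p = 0.0649). It was also lost with only the groups compared (limma adjusted p = 0.0762). PRXIIF, a mitochondrial peroxiredoxin, was lower in Bala with arsenate (-0.72 ± 0.19, limma adjusted p = 0.0331), and MSRB3 was higher (0.72 ± 0.20, limma adjusted p = 0.0451), both lost without 1 of several arrays, with an adjusted p of up to 0.147 and 0.189. gcs was lower in Bala by limma in controls (-0.63 ± 0.17, adjusted p = 0.0416, up to 0.160 without 1 array) and with arsenate (-0.95 ± 0.17, adjusted p = 0.00602). The gcs call with arsenate was lost in 2 of the 3 fits that left out an experiment (limma adjusted p up to 0.139). It was also lost with only the groups compared (limma adjusted p = 0.0549). These genes were named after their values were seen.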
